A study of Mus musculus with 10 samples.

Results

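The miR-143 and miR-145a cluster is a pair of microRNA (miRNA) hairpins that are made from neighbouring stretches of one chromosome and are best known from smooth muscle. Its members here are the 4 mature arms of these 2 hairpins, mmu-miR-143-3p, mmu-miR-143-5p, mmu-miR-145a-5p and mmu-miR-145a-3p (written without the mouse prefix from here), chosen by name from the 1340 mature miRNAs of the table. Small RNA had been sequenced from RPE/choroid/sclera at postnatal day 34, all of it from C57BL/6J mice of wild type. This tissue is the outer wall of the back of the eye, where a pigmented epithelium covers a layer of vessels, the choroid, and the white of the eye. The 10 libraries came from 5 right eyes and 5 left eyes, and a right and a left library share each of the numbers 61, 64, 65, 66 and 68. One eye of each mouse had carried a -20 dioptre lens for 10 days from postnatal day 24, a treatment that induces myopia, and the fellow eye had none. The labels do not say which eye that was, so right eyes could be set against left eyes but lens against no lens could not. The labels do not state either that libraries of one number are of one mouse, although the protocol compares the eyes of an animal.

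A miRNA hairpin is cut into a duplex, one arm of which is usually kept in an Argonaute protein as the guide that silences matching mRNAs, while the other arm is mostly lost. Both hairpins of the cluster are transcribed together, under serum response factor and myocardin in smooth muscle, and in mice they help vascular smooth muscle to keep its contractile state. In the back of the eye such cells line choroidal arterioles, and the cluster is also known from pericytes and fibroblasts. The main arms are miR-143-3p and miR-145a-5p. No mRNA was measured in these libraries, so the cells that carried the cluster were not identified.

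The hairpins lie on the minus strand of chromosome 18 in GRCm38, Mir143 at 61649196 to 61649258 and Mir145a at 61647825 to 61647894, with 1301 bases between them. The mature arms lie at 61649199 to 61649219 for miR-143-3p, 61649233 to 61649253 for miR-143-5p, 61647866 to 61647888 for miR-145a-5p and 61647827 to 61647848 for miR-145a-3p. The annotations differ on the host transcript. RefSeq (GRCm38.p6) draws the long noncoding RNA Carmn, the host gene of the cluster, from 61645878 to 61665538, and both hairpins lie inside it. GENCODE M21 ends the same gene at 61649625, so that both hairpins lie downstream of it, Mir143 at a distance of 366 bases. On the plus strand the long noncoding RNA Bvht (Braveheart) ends 352 bases short of Mir145a in GENCODE M21.

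The unit throughout is the authors' normalised signal. At the ranks that the main arms reached, each rank carried one and the same signal in all 10 libraries (ranks 1 to 10 and those looked up between 81 and 101). A value there tells the place of a miRNA in its library's order, and a difference smaller than a step cannot appear. The steps were wide at the top, where rank 5 lay 1.06-fold above rank 6 and rank 6 lay 1.18-fold above rank 7, and narrower lower down, where rank 89 lay 1.03-fold above rank 90. The column sums were nearly equal, between 11878152 and 11879036, so the depth of the libraries is unknown. The tissue's leading miRNA was miR-204-5p, known from pigment epithelium, at rank 1 in all 10 libraries. The library of right eye 68 stood apart, with a summed signal of 1332840 for 7 miRNAs of retina and neurons, against 191001 to 474874 in the other 9.

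miR-143-3p was one of the most abundant miRNAs of the tissue and held at least 106.7 times the signal of miR-145a-5p, the next arm of its cluster, in each of the 10 libraries. Its signal was 740063 in right eyes 61, 64 and 68 and 885359 in right eyes 65 and 66. In left eyes it was 740063 in numbers 61, 64 and 65, 788025 in number 66 and 939897 in number 68. These are 4 distinct values, the steps of ranks 3 to 6, and the sides overlap, with 6 of the 10 libraries on the lowest step. The mean was 798181 ± 79582 in right and 789622 ± 86535 in left eyes (SD, n = 5 each). This was 6.23% to 7.91% of the signal of a library and 98.7% to 99.1% of what the 4 arms held together.

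The step of miR-143-3p in a library followed its order among a few other miRNAs. In both eyes of numbers 61 and 64 and in left eye 65 it stood at rank 6, under miR-204-5p, let-7a-5p, miR-22-3p, miR-26a-5p and miR-181a-5p. In right eyes 65 and 66 let-7a-5p and miR-181a-5p ranked below it, which gave it rank 4, and in left eye 66 miR-181a-5p did, which gave rank 5. In left eye 68 both were below it, and miR-26a-5p ranked below it as well, which gave rank 3. In right eye 68 let-7a-5p was below it but the photoreceptor miRNA miR-182-5p stood above it, and it stood at rank 6.

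Among its neighbours in mean signal, miR-26a-5p (898615 ± 62394, SD, n = 10) ranked above miR-143-3p in 9 of 10 libraries. miR-181a-5p (803494 ± 73652) was above it in 6 and below it in 4 libraries, so that pair did not differ beyond its spread. Below it came miR-27b-3p (605912 ± 71087), lower in all 10 libraries, and miR-182-5p (340524 ± 292499), lower in 9.

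miR-145a-5p, the guide that represses the pluripotency and smooth muscle regulator KLF4 in human and mouse cells, was present at a small part of that level. Its signal was 5902, 6302, 5902, 6083 and 3976 in right eyes 61, 64, 65, 66 and 68. In left eyes of the same numbers it was 6596, 5902, 5733, 7383 and 5902. The sides overlap, and right eye 68, at rank 101 where the other 9 libraries held ranks 81 to 90, gave the lowest value. The mean was 5633 ± 941 in right and 6304 ± 689 in left eyes (SD, n = 5 each). Without right eye 68 the mean over the remaining 9 libraries was 6190 ± 519, against 5968 ± 854 over all 10.

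The miRNAs around miR-145a-5p in mean signal were miR-214-3p (6560 ± 870, SD, n = 10) and miR-29c-3p (6400 ± 2514) above, and let-7d-3p (5967 ± 810) and miR-423-3p (5945 ± 672) below. Each of these 4 lay above it in some libraries and below it in others, so their order rests within the spread.

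The second arm of miR-145a was next in level, and that of miR-143 the lowest of the 4. miR-145a-3p had 2608, 2675, 2754, 2824 and 2824 in right eyes and 2891, 2754, 2373, 2956 and 3265 in left eyes, both in the order 61, 64, 65, 66 and 68. The right eyes lay inside the range of the left eyes, with means of 2737 ± 94.6 in right and 2848 ± 325 in left eyes (SD, n = 5 each). miR-143-5p had 341, 383, 305, 313 and 262 in right eyes and 388, 363, 317, 363 and 287 in left eyes in that order, with means of 321 ± 44.6 in right and 344 ± 40.8 in left eyes. Both eyes of number 68 were the lowest of their side for miR-143-5p.

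**Figure D1:**
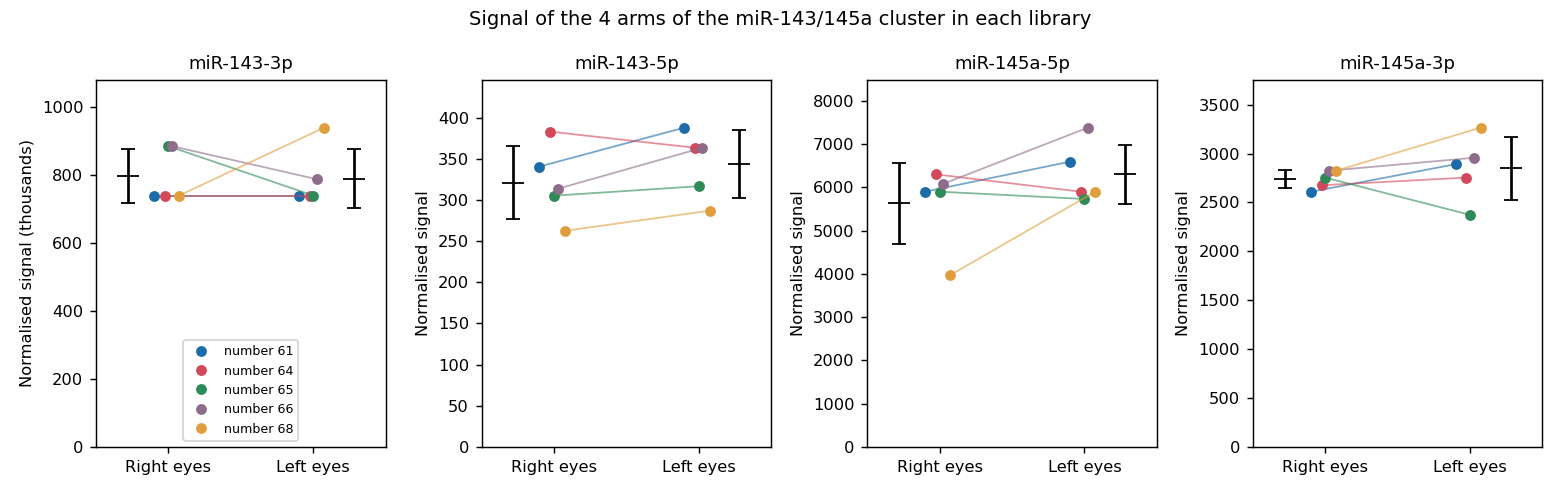
Normalised signal (vertical axes, linear from 0, divided by 1000 in the first panel) of the 4 arms in right and left eyes. Points are libraries, lines join eyes of one number, and black bars give mean and SD (n = 5 each). miR-143-3p sits on 4 steps with 6 libraries at 740063, and right eye 68 is the lowest point for miR-145a-5p at 3976.

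The hairpins differed widely in how much of the second arm remained. The 3p arm of miR-143 held 2531 ± 445 times the signal of its 5p arm in right and 2345.5 ± 544 times in left eyes (SD, n = 5 each). The 5p arm of miR-145a held only 2.06 ± 0.377 times the signal of its 3p arm in right and 2.23 ± 0.271 times in left eyes. Of the 158 hairpins with both arms at a mean signal of at least 10, miR-143 had the sixth widest gap between its arms, and 152 had a narrower one. For miR-145a 29 hairpins had a narrower gap, and it was one of 53 hairpins (33.5%) with arms within 4-fold of each other. The median gap over the 158 hairpins was 12.8-fold. Hairpins with a single arm at that signal were left out, as were those whose arms carry different names, such as let-7a. Their gaps can be wider, so the place of miR-143 and the median hold among the 158 only. Reads of different miRNAs and arms are not ligated equally well into small RNA libraries, so ratios between arms or miRNAs describe signals and not molecules.

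**Figure D2:**
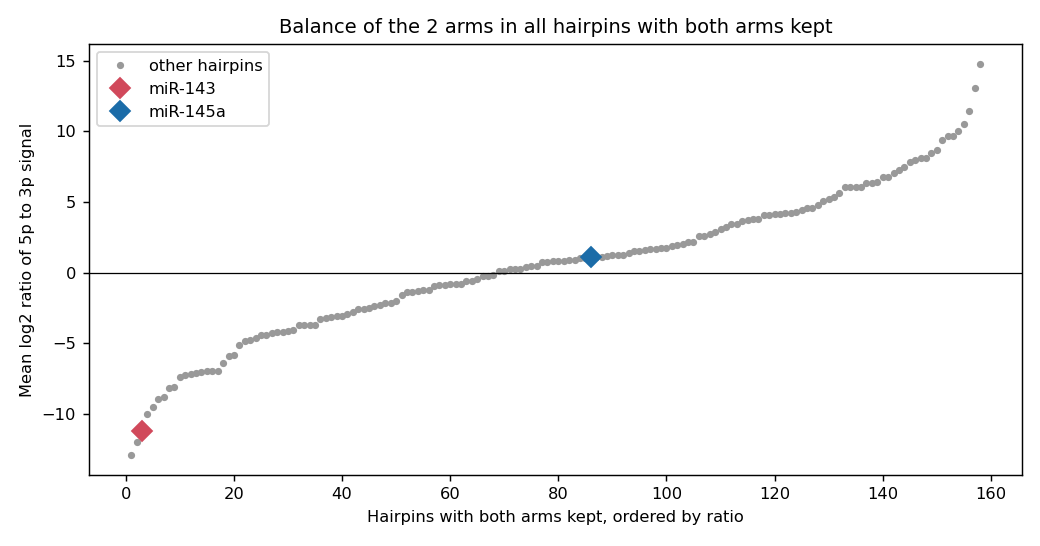
Mean log2 ratio of 5p to 3p signal over 10 libraries (vertical axis) for 158 hairpins ordered by that ratio (horizontal axis). miR-143 lies near the lower end at -11.22 and miR-145a close to balance at 1.09.

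Between the partners the order depended on the arm. For the main arms miR-143-3p held 144.9 ± 26.7 times the signal of miR-145a-5p in right and 127 ± 20.5 times in left eyes (SD, n = 5 each). The ratio was 125, 117, 150, 146 and 186 in right eyes 61, 64, 65, 66 and 68, and 112, 125, 129, 107 and 159 in left eyes. The second arms stood the other way round, with miR-145a-3p at 8.69 ± 1.45 times the signal of miR-143-5p in right and 8.41 ± 1.68 times in left eyes.

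The distance between the main arms was set beside other neighbours. There were 30 pairs of neighbouring hairpins on one strand with both arms kept and main arms within 2000 bases. The ratio of mean signals was 133-fold for miR-143-3p over miR-145a-5p, the third widest of these pairs, after miR-127-3p with miR-433-3p (666-fold) and miR-411-5p with miR-299a-3p (167-fold). The median over the 30 pairs was 5.05-fold. A hairpin can enter several pairs, as miR-127 and miR-411 do, so the pairs are not separate observations. Both wider pairs lie on chromosome 12. Hairpins with a single arm kept or with arms of different names were left out here too. The place and the median therefore hold among these 30 pairs only.

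Number 68 held an end place on both sides in 3 of the 4 ratios, which share the same arms and are not separate observations. Its eyes had the highest ratio of miR-143-3p to miR-145a-5p, 186 in the right and 159 in the left eye, and the lowest ratio of the miR-145a arms, 1.41 in the right and 1.81 in the left eye. They also had the highest ratio of miR-145a-3p to miR-143-5p, 10.8 in the right and 11.4 in the left eye. The ratio of the miR-143 arms was the exception, at 2820 in right eye 68, under the 2902 of right eye 65 and the 2825 of right eye 66, while left eye 68 had the highest of its side at 3275. The summed retina and neuron signal was 1332840 in right eye 68 but 264557 in left eye 68, inside the range of the other libraries, and its part in these ratios was not tested. How often a number held the same end place on both sides in other hairpins was not counted.

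**Figure D3:**
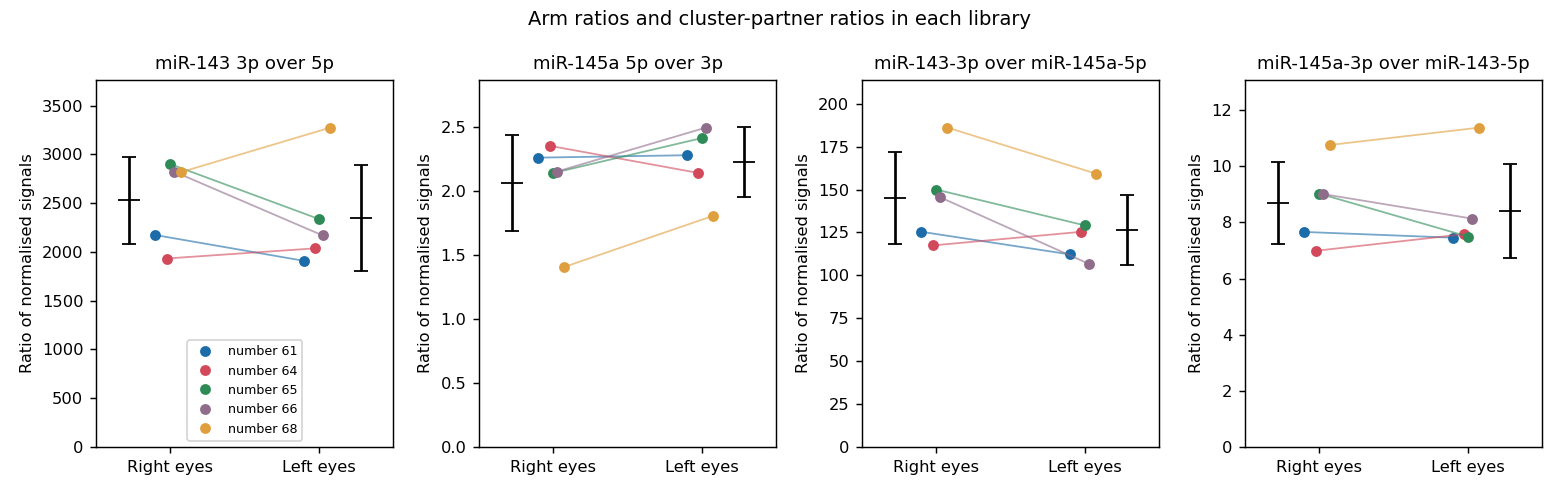
Ratios of normalised signals (vertical axes, linear from 0) between arms of one hairpin and between the cluster partners, in right and left eyes. Points are libraries joined by number, and black bars are mean and SD (n = 5 each). Both eyes of number 68 are highest for miR-143-3p over miR-145a-5p (186 and 159) and lowest for miR-145a 5p over 3p (1.41 and 1.81).

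The design allowed one comparison of the sides. In limma 0 of the 4 arms passed an adjusted p of 0.05, as did 0 of 588 miRNAs (0%). At an unadjusted p under 0.05 there were 13 miRNAs (2.21%), 10 higher (1.7%) and 3 lower (0.51%) in right eyes, with 0 of the 4 arms among them. One direction in all 5 pairs was seen in 17 of 588 miRNAs (2.89%) and in 0 of the 4 arms. The largest difference was for miR-145a-5p, at a log2 difference of -0.17 ± 0.11 (SE, adjusted p = 0.967 in limma). It was lower in 3 of 5 right eyes, and the 95% interval ran from 0.741-fold to 1.06-fold. For miR-143-5p the log2 difference was -0.10 and the interval 0.805-fold to 1.08-fold, lower in 4 of 5 right eyes. For miR-145a-3p it was -0.05 and the interval 0.840-fold to 1.11-fold, again lower in 4 of 5. For miR-143-3p it was 0.02 and the interval 0.872-fold to 1.17-fold, higher in 2, lower in 1 and tied on a step in 2 of the 5 pairs. The 4 intervals together reached from 0.741-fold to 1.17-fold, within the limits of the rank steps. The difference for miR-145a-5p was -0.08 without number 68 and -0.05 in an unpaired fit without right eye 68 alone. Fewer cells of a type and less RNA per cell cannot be told apart in such bulk tissue.

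Neither did a ratio pass. The log2 ratio of 5p to 3p differed between right and left eyes by -0.12 for miR-143 (adjusted p = 0.945 in limma) and by -0.12 for miR-145a (adjusted p = 0.935 in limma), where 0 of 158 hairpins (0%) passed. Leaving out one number moved the miR-143 value to -0.05 (without 66), -0.07 (without 65) or -0.20 (without 68), and the miR-145a value to -0.07 (without 68) or -0.19 (without 64). The ratio of miR-143-3p to miR-145a-5p was higher in 4 of 5 right eyes, by 1.14-fold in the mean (exact two-sided sign-flip permutation over 5 pairs, p = 0.125). With 5 pairs the smallest p this test allows is 0.0625, so it could not pass 0.05. The log2 difference of this ratio was 0.19, against 0.13 without number 66 and 0.10 in an unpaired comparison without right eye 68 (exact permutation p = 0.5).

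**Figure D4:**
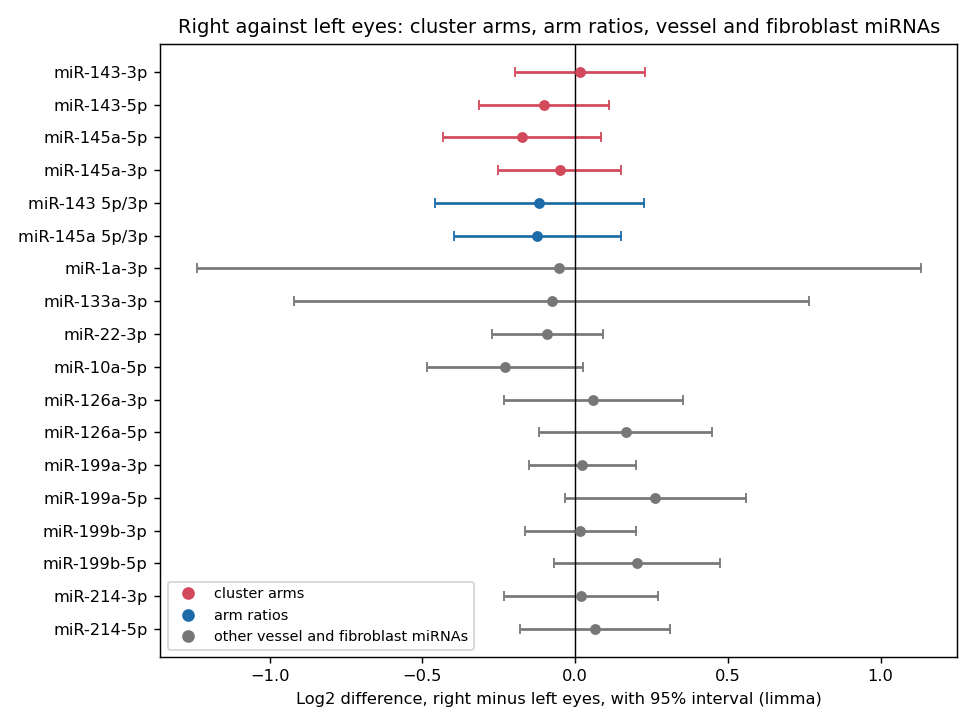
Log2 difference, right minus left eyes (horizontal axis), with 95% intervals from limma, for the 4 cluster arms, the 2 arm ratios and other miRNAs of vessel walls and fibroblasts. All intervals drawn include 0, and that of miR-145a-5p runs from -0.43 to 0.08.

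Other miRNAs of the vessel wall were followed in the same fit from lists. Of 4 further miRNAs tied to the contractile state of smooth muscle in cell culture and mouse work, 0 passed in either direction and all 4 had lower means in right eyes (median log2 difference -0.08). The largest of these 4 differences was that of miR-10a-5p (log2 -0.23), with 15022 ± 2703 in right and 17591 ± 2845 in left eyes (SD, n = 5 each). The others were -0.05 for miR-1a-3p, -0.08 for miR-133a-3p and -0.09 for miR-22-3p. Of 7 tied to the proliferative state, 0 passed, with 3 higher, 3 lower and 1 equal in right eyes (median 0.00). In that list the largest difference was that of miR-221-3p (log2 -0.19), which in rat cells lowers the cell cycle inhibitor p27. Signals of miR-221-3p were 2619 ± 666 in right and 2937 ± 401 in left eyes. Both endothelial arms, miR-126a-3p and miR-126a-5p from the gene Egfl7, were higher in right eyes without passing (median 0.11). The 6 fibroblast arms of miR-199 and miR-214 had higher means without passing (median 0.04), but miR-199a-3p and miR-199b-3p share one sequence and are not separate observations. Over all 588 miRNAs 319 were higher and 267 lower in right eyes, and the median was 0.02.

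Against the vessel and fibroblast sums, the level of miR-143-3p was 3.21 ± 0.447 times the summed endothelial arms in right and 3.47 ± 0.269 times in left eyes. It was 3.70 ± 0.218 times the summed fibroblast arms in right and 3.75 ± 0.179 times in left eyes (SD, n = 5 each). Both ratios overlapped between sides. Most of the fibroblast sum lies in miR-199a-3p and miR-199b-3p, which have one mature sequence, so the sum may hold the same reads more than once. Without miR-199b-3p the ratio was 6.54 ± 0.418 in right and 6.69 ± 0.309 in left eyes. A list of miRNAs known from striated muscle, most of whose signal is miR-133a-3p, summed to 42454 to 78751 in right and 25954 to 104393 in left eyes. The ratio of miR-143-3p to that sum was 15.5 ± 3.47 in right and 15.8 ± 8.78 in left eyes. The contractile list holds miR-133a-3p and miR-1a-3p as well, so the source of this signal was not tested. Of 9 miRNAs of surface epithelium, cornea and lens, 8 had lower means in right eyes without passing (median log2 difference -0.92), with sums of 32915 to 214046 in right and 72498 to 254411 in left eyes. Their part in the values of the cluster was not tested.

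All 4 arms spread less over the libraries than the median miRNA, which many miRNAs of low signal enter. The SD of log2 signal over 10 libraries was 0.14 for miR-143-3p, 0.19 for miR-143-5p, 0.23 for miR-145a-5p and 0.12 for miR-145a-3p, where the median of the 588 miRNAs was 0.34. Of the 588, 37 had a smaller SD than miR-143-3p and 21 a smaller SD than miR-145a-3p, while 96 and 156 lay under miR-143-5p and miR-145a-5p. Without right eye 68 the SD of miR-145a-5p was 0.11. The neighbours in level had SDs on both sides of the main arms, at 0.10 for miR-26a-5p, 0.13 for miR-181a-5p 0.20 for miR-27b-3p and 0.81 for miR-182-5p beside miR-143-3p. Beside miR-145a-5p, SDs were 0.19 for miR-214-3p, 0.20 for let-7d-3p, 0.16 for miR-423-3p and 0.51 for miR-29c-3p. A small spread was therefore not particular to the main arms of the cluster. The second arms were not set beside their neighbours in level. For miR-143-3p rank steps bear on this value, since 6 libraries share one step. Steps also showed for miR-145a-3p. It had 2754 at rank 117 in right eye 65 and left eye 64, and 2824 at rank 116 in right eyes 66 and 68. For miR-143-5p rank 227 gave 363 in left eyes 64 and 66. Rank 222 held 383 in right eye 64 but 388 in left eye 61.

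**Figure D5:**
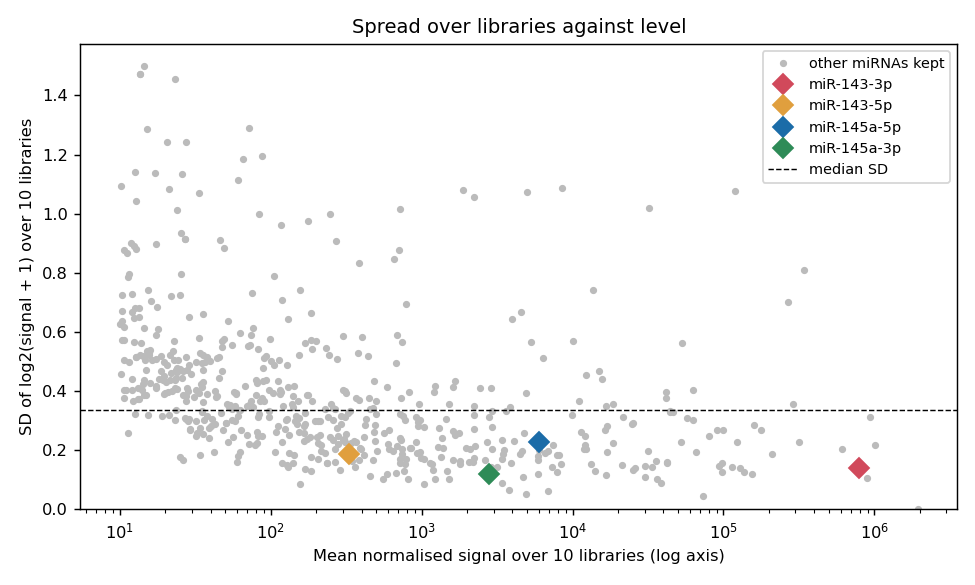
SD of log2(signal + 1) over 10 libraries (vertical axis) against mean signal (horizontal log axis) for the 588 miRNAs kept. The 4 cluster arms (diamonds) lie between 0.12 and 0.23, under the median of 0.34 (dashed line).

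The number means of miR-143-5p spanned more than its eyes did within a number. The mean was 364 in number 61, 373 in number 64, 311 in number 65, 338 in number 66 and 275 in number 68. These spanned 98.4, and no right and left eye of one number lay more than 49.9 apart. For miR-143-3p the span was 99917 and the widest such distance 199834, and for miR-145a-5p these were 1794 and 1926. For miR-145a-3p they were 481 and 441. A test over the number terms, added after these values were seen, called none of the 4 arms. Its adjusted p was 0.287 for miR-143-5p in limma, and 7 of 588 miRNAs (1.19%) passed. The same test on the arm ratios gave an adjusted p of 0.229 for miR-145a and 0.267 for miR-143 in limma, where 17 of 158 hairpins (10.8%) passed.

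The arms of the cluster did not all move together over the 10 libraries. Pearson's r of log2 signal was 0.14 for miR-143-3p with miR-145a-5p (Spearman's rho 0.17) and -0.16 without right eye 68, so its sign rested on that library. The median of the 30 neighbouring pairs was 0.17 over all 10 libraries. It was 0.76 for miR-143-5p with miR-145a-5p (rho 0.71), 0.50 without left eye 61 and right eye 68, and 0.57 without right eye 68 alone. It was 0.60 for miR-143-3p with miR-145a-3p (rho 0.57), 0.23 without left eye 68 and right eye 66, and 0.63 without right eye 68. Between the arms of miR-143 it was -0.45 (rho -0.49), -0.23 without the same 2 libraries, and -0.80 without right eye 68. Between the arms of miR-145a r was 0.12 (rho 0.40), 0.29 without left eye 66 and right eye 68, and 0.37 without right eye 68 alone. For miR-143-5p with miR-145a-3p it was -0.16 (rho -0.14), -0.28 without left eye 61 and right eye 68, and -0.16 without right eye 68 alone. All 6 pairs of arms were looked at. They are given as a description with no p, since eyes of one number may not be independent and all values share the normalisation.

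The miRNAs most like miR-143-3p over the 10 libraries were taken from 334 others with a mean signal of at least 100 by Pearson's r of log2 signal. They were miR-363-3p (0.91), miR-140-3p (0.89), miR-199b-3p (0.88), miR-150-5p (0.87) and miR-24-2-5p (0.87). miR-140-3p is known from cartilage, miR-150-5p from lymphocytes, and miR-199b-3p from fibroblasts. Their mature sequences, from RefSeq (GRCm38.p6) where its table held them, are shown to compare their seeds (bases 2 to 8, in capitals), with miR-199a-3p added because it cannot be told from miR-199b-3p.
miR-363-3p: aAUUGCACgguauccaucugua
miR-140-3p: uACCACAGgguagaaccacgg
miR-199b-3p: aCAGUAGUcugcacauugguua
miR-24-2-5p: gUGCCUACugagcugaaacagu
miR-199a-3p: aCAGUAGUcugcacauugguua
They lie at chrX:52741697-52741718 (minus strand), chr8:107551288-107551308 (plus), chr2:32318524-32318545 (plus), chr8:84208839-84208860 (plus) and, for miR-199a-3p, at both chr1:162217883-162217904 (plus) and chr9:21496498-21496519 (minus). No seed was shared except between miR-199a-3p and miR-199b-3p, whose whole sequences are the same, so reads cannot be assigned to one of them. Without right eye 68 these 5 still had r between 0.88 and 0.97, although 4 of them were then no longer among the 5 most alike. Right eye 68 lies on a step of miR-143-3p that it shares with other libraries. Without left eye 68 and right eye 66 r was 0.88 for miR-363-3p and 0.80 for miR-140-3p and miR-199b-3p. It was then 0.70 for miR-24-2-5p and 0.62 for miR-150-5p.

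For miR-145a-5p the most alike were miR-27b-3p (0.88), miR-193b-3p (0.83), miR-107-3p (0.83), miR-320-3p (0.83) and miR-669c-5p (0.80), and this rested on right eye 68. Without that library r was 0.66 for miR-193b-3p, 0.51 for miR-669c-5p, 0.38 for miR-320-3p and 0.17 for miR-107-3p, and miR-27b-3p had one value in all the other 9 libraries. For the second arms the most alike were miR-744-5p (0.94), miR-222-3p (0.93) and miR-221-3p (0.92) for miR-143-5p, and miR-411-5p (0.72, and 0.45 without left eyes 65 and 68) for miR-145a-3p. Close behind for miR-143-5p were miR-378d (0.92) and miR-676-3p (0.92). By right minus left differences r with miR-143-5p was 0.89 for both miR-744-5p and miR-378d. It was 0.74 for miR-222-3p, 0.48 for miR-221-3p and 0.42 for miR-676-3p. The arms miR-221-3p and miR-222-3p come from one cluster on chromosome X and are known from proliferating smooth muscle and endothelium.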

How the data were processed

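Per the labels' protocols, small RNA from the RPE/choroid/sclera of right and left eyes was made into TruSeq small RNA libraries. The extract protocol speaks of retinae, and the tissue label was followed. The authors used Bowtie and Partek with GRCm38 (mm10), per the submitters' processing notes, and how values were normalised is not stated in the labels. The values the authors deposited are a normalised signal of 1340 miRNAs. Only 7.31% of the values above 0 are whole within 0.001, so reads were not recovered, count models were not used and depth is unknown. No counting interval is given.

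Values were analysed as log2(signal + 1) for the 588 miRNAs with a mean signal of at least 10, which include all 4 arms. Fold changes are on that scale. Right eyes were compared with left eyes in limma 3.58.1 (R 4.3.3). The model held side and number (a block), with trended variances. Tests were two-sided, and p was adjusted by Benjamini and Hochberg over all miRNAs (or all 158 hairpins, for log2 5p over 3p) at 0.05. Pairing rests on the number in the titles and on a protocol that sets an eye against its fellow. After side means were subtracted, both eyes of a number correlated at 0.12, 0.447, 0.0128, -0.133 and 0.285 for numbers 61, 64, 65, 66 and 68. The ratio of main arms was tested by exact sign-flip permutation of the 5 pairs. The fit was tested on simulated data with independent normal noise. Those data held no rank steps, so that test does not bear on the tied values here. In the main fit, p-values are set against the spread left in these libraries after side and number, with variances moderated towards a trend. The sign-flip p-value rests on the 5 paired differences only.

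The arms, the lists and the tests were chosen with earlier results of these data known. Named miRNAs are the 4 arms, the 5 most alike to each main arm (mean signal of at least 100), the 2 above and 2 below each in mean signal, and members of the lists. Those most like the second arms, the miRNAs ranking above miR-143-3p, the neighbouring hairpins, the tests between numbers, the values without right eye 68 and the fibroblast sum without miR-199b-3p were added after values were seen. Positions are 1-based. The file's stop lies 1 past the RefSeq end in all 1133 miRNAs with a matching start, and was lowered by 1.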

Additional observations from a re-analysis of the deposited data

Results flagged for a closer look

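One library was set apart from the other 4 of its side where its gap to the nearest exceeded 0.71 of the range, on the log2 scale. This held for 6 of 36 checks over the arms, ratios and list sums. Chance gives about 1 in 20 for independent values, and these checks are not independent, since ratios were checked beside their own arms and some values are tied steps.

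Right eye 68 was apart in miR-145a-5p (3976) and in the ratio of miR-145a 5p to 3p (1.41). The library of left eye 68 stood off in miR-143-3p (939897) and in the ratio of miR-145a-3p to miR-143-5p (11.4). Right eye 66 was apart in the summed striated muscle miRNAs (78751), and left eye 65 in the summed retina and neuron miRNAs (474874). Right eye 68 did not meet this rule within its side for the retina and neuron sum, although its 1332840 was the highest of all libraries.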

How the results depend on the processing

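Of 72 recomputed right minus left values of the arms and arm ratios, 0 passed 0.05 (lowest adjusted p = 0.8083 in limma). Of 9 of the partner ratio, 7 were paired and could not pass. Of all 81, 78 kept their direction, but some of these could not turn. Leaving out the block with all libraries kept, or changing the filter on signal, gives the same difference. Median centring cancels in the arm ratios. Those that turned were miR-143-3p, between -0.04421 and 0.1067 with one number left out (-0.04 without 65, -0.02 without 66), and the miR-145a arm ratio, 0.007774 in an unpaired fit without right eye 68 (added after the data were seen). Without the replicate block the log2 difference of the ratio of main arms is 0.191 by construction, and the exact permutation p was 0.254. This difference was 0.1268 to 0.2623 with one number left out and 0.09598 unpaired without right eye 68. The block changed no call, but the paired test of this ratio could not have given one. The miRNAs past 0.05 numbered 0 in every setting. The 7 miRNAs called between numbers became 23 with a mean signal of at least 100, 12 after median centring and between 0 and 22 with one number left out (0 without 61, 64 or 68, 1 without 65). Of the 5 miRNAs most like miR-143-3p, 3 remained by Spearman correlation, 1 by right minus left differences and 1 without right eye 68. For miR-145a-5p these were 1, 0 and 0. The cause was not tested. Unknown depth and rank steps limit what small differences can show.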
